A study of Mus musculus with 48 samples.

Results

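Car1 and Nos1 are the genes for carbonic anhydrase 1 and for neuronal nitric oxide synthase, and they are 2 of the 53345 genes that the deposited matrices list. Both were selected on their counts in Tregs of PBS mice, where their expression was higher with MHC II blockade, so their values in that contrast are given as a description and carry no test. The measurements that did not choose them are the same contrast in Tregs of mice given IL-2, in Tcons, and between Tregs and Tcons of the same mouse. Some Tcon libraries come from the PBS mice whose Tregs chose the genes, so the Tcon contrasts are not fully on other animals.

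Female C57BL/6 mice, 8 to 12 weeks old, received 2 intraperitoneal doses of 500 µg of an isotype control antibody or of a blocking antibody to MHC class II (MHCII-Block), on day -1 and day 0. On day 0 they also received subcutaneous PBS, or 25 µg of WT IL-2, of the attenuated mutein H16R, or of the 3x mutein, a form of IL-2 with 3 substitutions. Spleens were taken on day 4, and polyA RNA of magnetically purified cells was sequenced with a stranded kit, 1 library per sample. Tregs are the bead-bound CD25+ fraction, with 32 libraries (8 groups of 4), and Tcons are the unbound CD25- fraction of 16 of the same mice (8 groups of 2). A pair of isotype WT Treg libraries carry the same mouse label. They are called 3a and 3b and were kept apart, so this group may hold 3 mice in place of 4. All mice were without disease and carried no transgene that the labels name. An antibody was given to every mouse, so no library represents cells without one.

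Carbonic anhydrases interconvert carbon dioxide and bicarbonate. Car1 is a cytosolic member of the family, best known from red blood cells, where it is among the most abundant proteins after hemoglobin, and from the lining of the colon. Nos1 makes nitric oxide and citrulline from arginine, needs calmodulin and tetrahydrobiopterin for this, and is best known from neurons and skeletal muscle. Nitric oxide activates soluble guanylate cyclase, which makes cyclic GMP. MHC class II presents antigen to the receptor of CD4 T cells, the cells to which Tregs and Tcons belong.

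Car1 (ENSMUSG00000027556.15) lies on the minus strand at chr3:14766216-14808368 in GRCm38, in a cluster with Car13, Car3 and Car2. Nos1 (ENSMUSG00000029361.18) lies on the plus strand at chr5:117781032-117958840. Both are protein-coding genes of GENCODE vM21. Reads can be credited to the wrong member of a family where the sequences are alike, so the members were compared with their closest relatives. The coding sequence of Car1 was 67.0% identical to that of Car2, 68.3% to Car3 and 66.9% to Car13. The longest stretch it shared with any of these 3 was 20 bases, with Car3. The windows around that stretch, 298 to 347 of the Car1 coding sequence and 295 to 344 of the Car3 coding sequence, are shown because they are where the paralogs of the cluster are hardest to tell apart; capitals mark the shared run.
Car1: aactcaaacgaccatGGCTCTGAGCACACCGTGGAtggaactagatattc
Car3: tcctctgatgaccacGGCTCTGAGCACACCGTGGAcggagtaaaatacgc
The nearest copy of Car1 was not a paralog but the pseudogene Gm5843 at chr3:14722416-14729626, whose transcript was 97.9% identical over 476 aligned bases. It shared 32 of the 1246 windows of 100 bases (2.57%) that make up the Car1 transcripts, and no other gene shared one. Gm5843 was listed at 0 in all 48 libraries, and Car1 had the same implied length, 1.2 to 1.21 kb, in every one.

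No copy as near as Gm5843 was found for Nos1. Its coding sequence was 69.4% identical to Nos2, the inducible synthase, and 70.6% identical to Nos3, the endothelial synthase. None of its 11335 windows of 100 bases occurred in another gene. The longest stretch shared with Nos3 was 23 bases. The windows around it, 3161 to 3213 of the Nos1 and 2354 to 2406 of the Nos3 coding sequence, are shown again with the shared run in capitals.
Nos1: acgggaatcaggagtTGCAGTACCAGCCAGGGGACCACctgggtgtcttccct
Nos3: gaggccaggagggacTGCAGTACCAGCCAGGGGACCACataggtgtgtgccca
Fragments that cover the Nos1 transcript therefore carry many bases that set it apart.

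Library totals ran from 18.28 to 51.24 M expected counts in Tregs and from 31.31 to 51.95 M in Tcons. The 8 T cell and Treg markers, Foxp3 and Il2ra included, summed to between 3608.4 and 6145.2 CPM, counts scaled to the library total, in Treg libraries and between 1344.5 and 3121.7 CPM in Tcon libraries, and all 8 were higher in Tregs. Tcon libraries also held markers of other spleen cells: B cell markers summed to between 159.9 and 1161.3 CPM there, against 34.6 to 758.6 CPM in Tregs. Of the Treg libraries, isotype PBS library 1 and MHCII-Block WT library 1 stood apart, with 758.6 and 689.9 CPM of B cell markers and 177.6 and 1116.3 CPM of monocyte and macrophage markers. Some results on Car1 and Nos1 are therefore also given without these 2 libraries. RNA of a bulk fraction gives an average, so fewer cells of a type and less RNA per cell cannot be told apart.

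Car1 was low in Tregs of isotype-treated mice and higher in every MHCII-Block group. In isotype PBS Tregs its level was 2.37, 2.33, 1.55 and 7.33 CPM in libraries 1 to 4, and in MHCII-Block PBS Tregs it was 11.6, 18.1, 46.3 and 31.4 CPM. The lowest blocked library was thus above the highest isotype library. The means were 3.40 ± 2.65 and 26.8 ± 15.4 CPM (SD, n = 4 each), a fitted log2 fold change of 3.03, and this is the contrast that chose the gene. Leaving out 1 library moved it between 2.62 (without MHCII-Block PBS library 3) and 3.67 (without isotype PBS library 4).

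Under WT IL-2, Car1 was at 3.48, 2.73, 3.62 and 0.888 CPM with isotype and at 12.4, 6.22, 7.77 and 12.3 CPM with MHCII-Block. Under H16R it was at 3.97, 4.10, 1.68 and 3.67 CPM with isotype and at 5.14, 5.87, 11.1 and 6.09 CPM with MHCII-Block. Under the 3x mutein it was at 0.919, 1.28, 0.541 and 1.95 CPM with isotype and at 8.27, 6.59, 9.98 and 13.2 CPM with MHCII-Block. The groups did not overlap under any of the 3 molecules, and the isotype 3x group held the lowest library. The expected counts behind these values ran from 27 in an isotype library to 615 in a blocked one, so the low end rests on few reads.

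Car1 rose with MHCII-Block under all 3 IL-2 molecules. Here and below, a gene is said to rise, fall or change where edgeR's quasi-likelihood test gave an adjusted p under 0.1, with the Benjamini-Hochberg method run across every tested gene, 12392 in Tregs. The log2 fold change was 1.84 under WT IL-2 (SE 0.45, adjusted p = 0.00286), which is 3.58-fold, and 2.02 without library 3a and 1.55 without library 3b of the shared mouse label, both past the threshold. It was 2.98 under the 3x mutein (SE 0.49, adjusted p = 1.81e-05), which is 7.9-fold. It was smallest under H16R, 1.06 (SE 0.45, adjusted p = 0.0845), and that call was lost without any 1 of the 4 isotype H16R libraries and without MHCII-Block H16R library 3 (0.75, adjusted p = 0.298) or 4 (1.13, adjusted p = 0.115). Averaged over the 3 molecules the log2 fold change was 1.96 (SE 0.27, adjusted p = 8.75e-07). As background, 18.2% of all genes tested were called higher and 15.3% lower with MHCII-Block under WT IL-2. Under H16R these shares were 15.4% and 15.2%, and under the 3x mutein 27.2% and 26.9%. In PBS Tregs, 6.0% were called higher and 8.13% lower. Averaged over the molecules, 55.3% were called in either direction. With total counts in place of TMM scaling, the higher share of these calls moved from 50.4% to 65.8% under H16R, from 50.2% to 60.4% under 3x and from 42.5% to 56.2% in PBS Tregs.

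**Figure D1:**
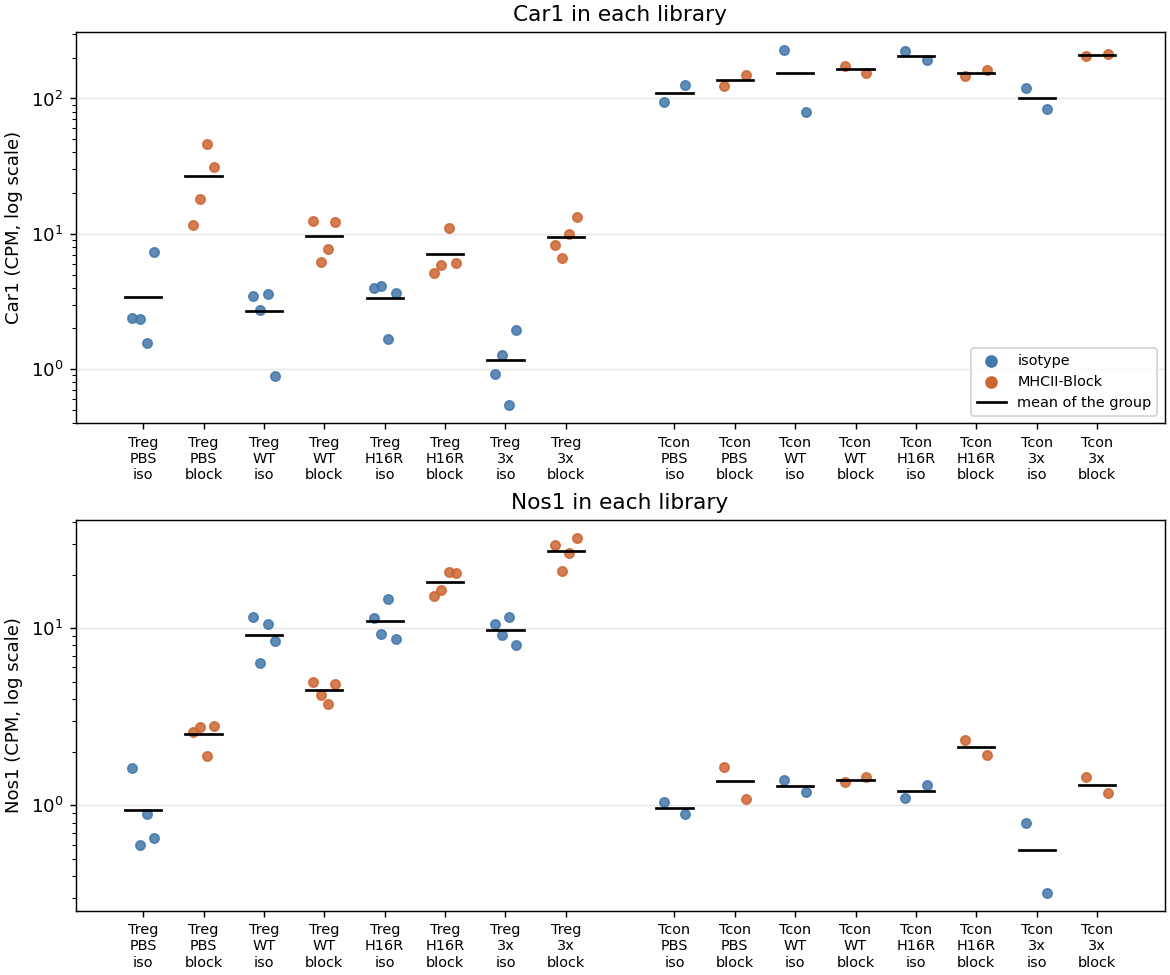
Level of Car1 (top) and Nos1 (bottom) in CPM on log axes in each of the 48 libraries, 1 point per library, by cell type, drug and antibody; black lines are group means. Car1 sits higher with MHCII-Block in each Treg group and highest in Tcons (78.8 to 228 CPM), while Nos1 is highest in MHCII-Block 3x Tregs and stays between 0.321 and 2.35 CPM in Tcons.

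The order of the Treg groups by mean Car1 was MHCII-Block PBS at 26.8 ± 15.4 CPM, MHCII-Block WT at 9.66 ± 3.14, MHCII-Block 3x at 9.51 ± 2.83 and MHCII-Block H16R at 7.06 ± 2.75 CPM. The isotype groups followed, PBS at 3.40 ± 2.65 CPM, H16R at 3.36 ± 1.13, WT at 2.68 ± 1.26 and 3x at 1.17 ± 0.601 CPM (SD, n = 4 each). Every pair of neighbours in this order had overlapping libraries, and MHCII-Block H16R met isotype PBS only through isotype PBS library 4. In FPKM, a scale per length of transcript on which levels of different genes can be compared, Car1 ran from 0.449 to 38.4 in Tregs.

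The IL-2 molecules were then compared with each other. With isotype antibody, Car1 was lower after 3x than after WT IL-2, by a log2 fold change of -1.17 (SE 0.5, adjusted p = 0.0848), and than after H16R, by -1.52 (SE 0.5, adjusted p = 0.0614). The call against WT was lost without isotype WT library 1, 2 or 3a or isotype 3x library 1, 2 or 3, with an adjusted p of up to 0.219. The call against H16R was lost without isotype H16R library 1, 2 or 4 or isotype 3x library 1 or 3, with an adjusted p of up to 0.179. H16R and WT IL-2 differed by 0.35 with a 95% interval from -0.56 to 1.25 (adjusted p = 0.687). The 3 pairs called 34.7%, 11.5% and 18.6% of all genes, in this order. With MHCII-Block no pair passed the test for Car1. There, 3x minus WT was -0.03 with an interval from -0.84 to 0.79 (adjusted p = 0.956), H16R minus WT was -0.43 (adjusted p = 0.402) and 3x minus H16R was 0.40 (adjusted p = 0.574). These pairs called 68.7%, 57.5% and 25.2% of all genes. The size of the blockade effect on Car1 did not pass a test of its difference between molecules: 3x minus H16R was 1.92 with an interval from 0.64 to 3.20 (adjusted p = 0.159), 3x minus WT was 1.14 (adjusted p = 0.176) and H16R minus WT was -0.78 (adjusted p = 0.404). The tests of these differences called 2.3%, 43.8% and 23.5% of all genes. The difference between 3x and H16R passed the threshold when only the libraries of the groups compared were fitted, at 1.93 with an adjusted p of 0.0455. It also passed without isotype PBS library 4 (0.0947), MHCII-Block H16R library 3 (0.094) or MHCII-Block 3x library 2 (0.0925). That between 3x and WT passed without isotype WT library 3b (1.43, adjusted p = 0.077) or isotype 3x library 4 (1.53, adjusted p = 0.0943).

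Against PBS, with no test since PBS Tregs chose the genes, Car1 differed with isotype by a log2 fold change of -0.25 under WT IL-2, 0.09 under H16R and -1.42 under 3x. Without isotype PBS library 4 these were 0.39, 0.73 and -0.78, and the sign under WT IL-2 turned. That sign also turned without isotype WT library 3b of the shared mouse label (0.04). Under H16R the sign turned without isotype PBS library 1, 2 or 3 (-0.05, -0.03 and -0.14). With MHCII-Block the differences were -1.44, -1.87 and -1.46, and without MHCII-Block PBS library 3 they were -1.03, -1.46 and -1.05. These contrasts share their PBS libraries with the contrast that chose the gene.

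With MHCII-Block, Nos1 fell under WT IL-2 and rose under both muteins. In isotype PBS Tregs it was at 1.62, 0.595, 0.90 and 0.66 CPM, and in MHCII-Block PBS Tregs at 2.58, 2.76, 1.90 and 2.82 CPM. These groups did not overlap, and their means were 0.942 ± 0.47 and 2.52 ± 0.423 CPM (SD, n = 4 each), a fitted log2 fold change of 1.28, again in the contrast that chose the gene. Without the 2 libraries rich in other cells it was 1.75. The isotype PBS values rest on few reads, down to 12 expected counts.

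Under WT IL-2, Nos1 was at 11.5, 6.39, 10.5 and 8.46 CPM with isotype and at 4.99, 4.22, 3.75 and 4.87 CPM with MHCII-Block. Every blocked library was below every isotype library. Under H16R it was at 11.4, 9.24, 14.6 and 8.64 CPM with isotype and at 15.2, 16.4, 20.8 and 20.6 CPM with MHCII-Block. Under 3x it was at 10.5, 9.19, 11.5 and 8.01 CPM with isotype and at 29.5, 21.1, 26.7 and 32.5 CPM with MHCII-Block. Under both muteins every blocked library was above every isotype library.

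MHCII-Block lowered Nos1 under WT IL-2, by a log2 fold change of -1.06 (SE 0.2, adjusted p = 0.000277), with -0.99 and -1.10 without library 3a or 3b. It raised Nos1 under H16R, by 0.70 (SE 0.19, adjusted p = 0.011), and under 3x, by 1.44 (SE 0.19, adjusted p = 9.76e-07). The difference between molecules was itself tested. The effect under H16R exceeded that under WT IL-2 by 1.76 (SE 0.28, adjusted p = 0.000162), and the effect under 3x exceeded it by 2.50 (SE 0.28, adjusted p = 1.7e-07). The effects under 3x and H16R differed by 0.74 (SE 0.27, adjusted p = 0.191), which passed without MHCII-Block 3x library 2 (0.85, adjusted p = 0.0852). The average over the 3 molecules, of opposite signs, was 0.36 (SE 0.11, adjusted p = 0.00947), with overlapping libraries.

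**Figure D2:**
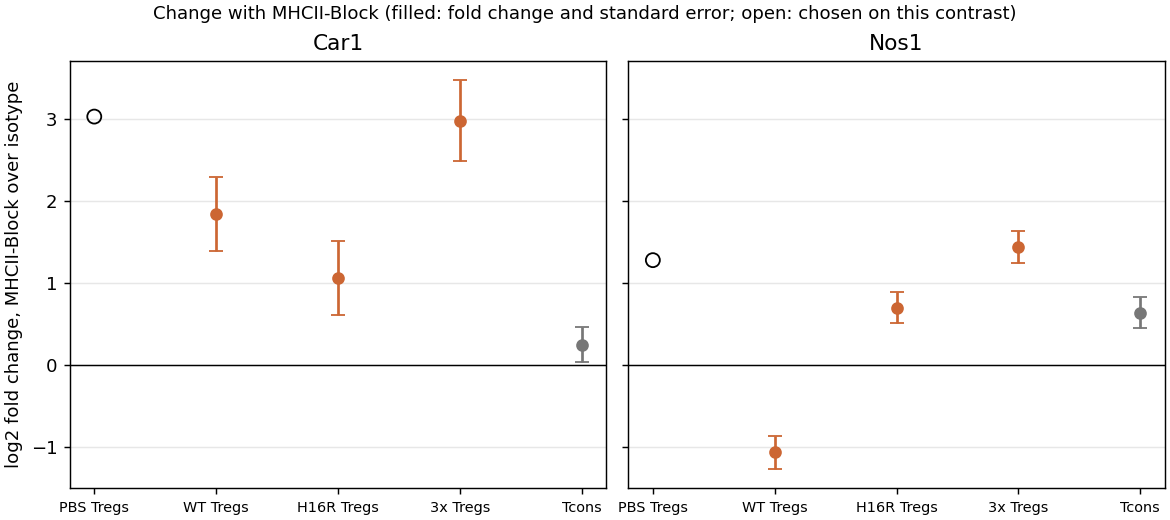
Log2 fold change of MHCII-Block over isotype for Car1 (left) and Nos1 (right) in Tregs of each drug and in Tcons; filled points carry the standard error as bars, and the open point is the contrast that chose the genes. Car1 is above 0 in all 4 Treg contrasts, and Nos1 is at -1.06 under WT IL-2 but at 0.70 and 1.44 under H16R and 3x.

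Among isotype Tregs the 3 molecules gave Nos1 at 9.22 ± 2.28 CPM (WT), 11.0 ± 2.72 (H16R) and 9.81 ± 1.54 CPM (3x; SD, n = 4 each). No pair passed the test: H16R minus WT was 0.29 (adjusted p = 0.349), 3x minus WT was 0.11 (adjusted p = 0.703) and 3x minus H16R was -0.18 (adjusted p = 0.669). With MHCII-Block the molecules separated, at 4.46 ± 0.582 CPM (WT), 18.2 ± 2.88 (H16R) and 27.5 ± 4.87 CPM (3x; SD, n = 4 each). H16R was above WT by 2.05 (SE 0.2, adjusted p = 1.77e-08) and 3x above WT by 2.62 (SE 0.2, adjusted p = 4.62e-11). The 3x mutein was above H16R by 0.57 (SE 0.19, adjusted p = 0.0344), a call lost without MHCII-Block 3x library 4 (0.47, adjusted p = 0.142) and without MHCII-Block H16R library 1 (0.49, adjusted p = 0.119).

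In the order of the 8 Treg groups, MHCII-Block 3x and MHCII-Block H16R stood above the 3 isotype IL-2 groups. Those 3 overlapped each other, and below them MHCII-Block WT, MHCII-Block PBS and isotype PBS each stood apart from the next. Against PBS, again without a test, Nos1 differed with isotype by 3.21 under WT IL-2, 3.50 under H16R and 3.33 under 3x, or 3.69, 3.98 and 3.81 without the 2 libraries rich in other cells. With MHCII-Block it differed by 0.87, 2.92 and 3.49. In FPKM, Nos1 ran from 0.0741 to 3.18 in Tregs.

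The FPKM of Nos1 divides by a length that was not the same in every library. The ratio of CPM to FPKM gives that length, and it was 10.2 kb at the median but as low as 6.5 kb, and below 10 kb in 12 of 48 libraries. Of these, 5 were Treg libraries, all from PBS mice, and 7 were Tcon libraries. CPM does not divide by length, and the tests used expected counts.

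In Tcons, Car1 was far higher than in Tregs. Its 16 Tcon libraries ran from 78.8 to 228 CPM with a median of 152 CPM, or 65.4 to 189 FPKM, while the 32 Treg libraries had a median of 5.51 CPM. In the 12 IL-2-treated mice that gave both fractions, Treg minus Tcon was -5.08 on the log2 scale (SE 0.22, adjusted p = 5.22e-11), 33.82-fold lower in Tregs. Of 12684 genes tested, 39.6% were called lower in Tregs and 37.8% higher, and Car1 was the number 35 gene from the most Tcon-high end. In each mouse the Treg library held from 0.769% to 12.2% of the Car1 level of its Tcon library. In IL-2-treated mice that share was 0.769% to 3.47% in the 6 with isotype and 3.07% to 7.08% in the 6 with MHCII-Block, and the ranges overlapped. In PBS mice, whose Tregs chose the gene, it was 1.86% and 2.53% with isotype and 9.33% and 12.2% with MHCII-Block.

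Nos1 had the opposite distribution. Its Tcon libraries ran from 0.321 to 2.35 CPM with a median of 1.24 CPM, and the expected counts behind them from 11 to 100.1. In the same 12 mice Treg minus Tcon was 3.20 (SE 0.25, adjusted p = 3.11e-08), 9.2-fold higher in Tregs, and Nos1 was the number 51 gene from the most Treg-high end. Tregs were above Tcons in all 12 of these mice, by 2.93-fold to 28.7-fold. Of the 4 PBS mice that gave both, 3 had more Nos1 in Tregs, and isotype PBS mouse 2 had 0.595 CPM in Tregs and 0.889 CPM in Tcons.

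**Figure D3:**
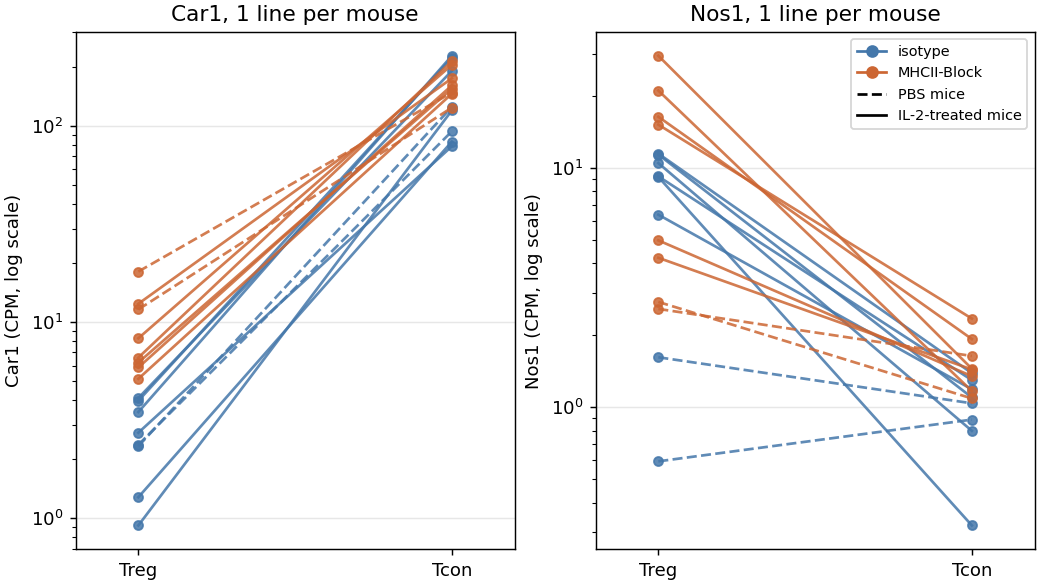
Level of Car1 (left) and Nos1 (right) in CPM on log axes in the Treg and Tcon libraries of the 16 mice that gave both, 1 line per mouse; colour is the antibody, and dashed lines are PBS mice. All 16 lines rise from Treg to Tcon for Car1, and 15 of 16 fall for Nos1.

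The blockade contrast in Tcons gave different results for the members. It includes Tcons of PBS mice whose Tregs chose the genes. For Car1, MHCII-Block minus isotype was 0.25 with a 95% interval from -0.17 to 0.67 (adjusted p = 0.415), with 166 ± 30.5 and 143 ± 62 CPM (SD, n = 8 each). Nos1 was higher with MHCII-Block by 0.64 (SE 0.19, adjusted p = 0.0366), at 1.55 ± 0.414 against 1.00 ± 0.338 CPM (SD, n = 8 each), with overlapping libraries. On the log2(FPKM + 1) scale in limma the Nos1 difference was 0.06 (adjusted p = 0.168), so that call was lost there. That fit differs in pseudocount, length divisor and test, and the cause of the loss was not tested. Of 12526 genes tested in Tcons, 13.8% were called higher and 15.1% lower.

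No IL-2 molecule changed either member in Tcons past the threshold. Against PBS, Car1 differed by 0.39 under WT IL-2 (adjusted p = 0.366), 0.57 under H16R (adjusted p = 0.179) and 0.29 under 3x (adjusted p = 0.594). Nos1 differed by 0.25 (adjusted p = 0.52), 0.48 (adjusted p = 0.198) and -0.38 (adjusted p = 0.421). The 3 contrasts called 27.2%, 31.1% and 9.88% of all genes. Under H16R, Car1 passed without Tcon isotype WT library 1 (0.60, adjusted p = 0.0979) and Nos1 without Tcon isotype 3x library 2 (0.48, adjusted p = 0.0883). The 95% interval for Car1 under H16R, from 4 libraries against 4, was -0.02 to 1.16.

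The genes most like Car1 across the 32 Treg libraries were mostly genes known from red blood cells and their precursors. By Pearson's r of log2 CPM over 32 libraries, among 11249 genes, they were Ces2g (0.976), a carboxylesterase, Pklr (0.963), the pyruvate kinase of liver and red cells, and Tal1 (0.954), a transcription factor needed for blood cell formation. Aqp1 (0.949), a water channel of red cells, and Ermap (0.947), a red cell surface protein, followed. The r values describe libraries that share their groups and depths, and they carry no p. Since these genes were picked for following Car1, their own contrasts are descriptions: with MHCII-Block they differed by 2.25 to 2.94 in PBS Tregs, 1.63 to 2.01 under WT IL-2, 0.65 to 1.26 under H16R and 2.36 to 3.39 under 3x.

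The ratio of Car1 to the summed CPM of the 5 genes lay between 0.367 and 0.949 in Tregs (median 0.602), a range that the choice of the genes in these same libraries limits. In Tcons, which did not choose the 5 genes, their sum ran from 90.0 to 483 CPM while Car1 ran from 78.8 to 228 CPM, with a ratio between 0.473 and 1.01.

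**Figure D4:**
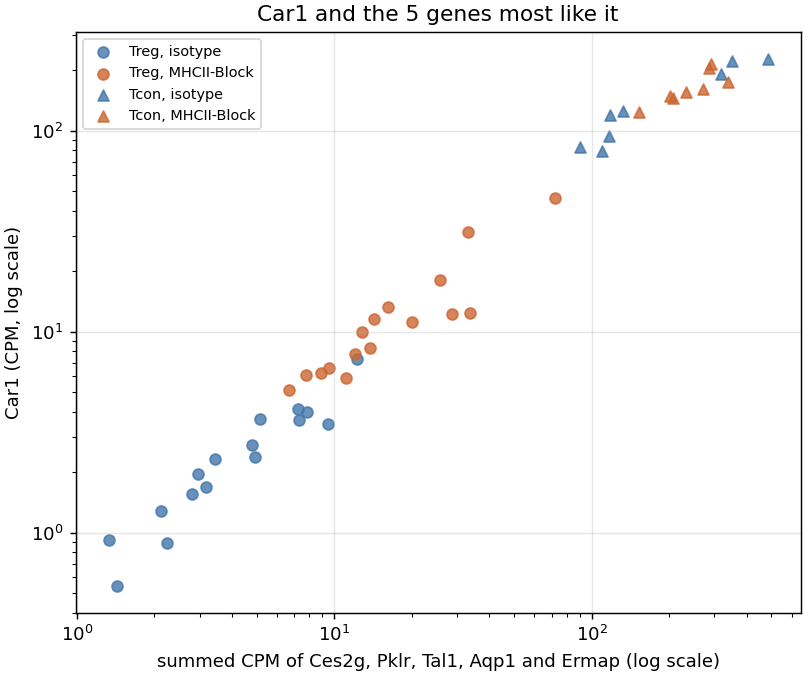
Car1 in CPM against the summed CPM of Ces2g, Pklr, Tal1, Aqp1 and Ermap, both on log axes, with 1 point per library, circles for Tregs, triangles for Tcons and colour for the antibody. The 5 genes were picked for following Car1 in the plotted Treg libraries, so the alignment of the circles is given by that choice; in Tcons the sum runs from 90.0 to 483 CPM and Car1 from 78.8 to 228 CPM.

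Markers of red blood cells and their precursors were measured beside Car1. The list had 18 genes, of which Hba-a2 had no values, Ahsp was not in the table and 14 were tested in Tregs. A low marker that passed the filter only through MHCII-Block libraries had to be higher there, so the counts and medians describe the tested markers alone. With MHCII-Block, 11 rose and 0 fell under WT IL-2, 2 rose (Klf1 and Car2) and 0 fell under H16R, and 11 rose and 1 (Gata1) fell under 3x. The shares called, 78.6%, 14.3% and 85.7%, stand beside 33.6%, 30.7% and 54.1% of all genes, so the share under H16R was below that of all genes. The Gata1 call (-0.19, adjusted p = 0.0933) was lost in DESeq2, in limma and with total counts. When only the groups compared were fitted, 6 of the list rose under WT IL-2 and 6 under 3x, and on the log2(FPKM + 1) scale in limma 3 rose under 3x and 1 under H16R. Their median log2 fold changes were 1.60, 1.07 and 2.16, against medians of all genes between 0.00 and 0.01. In PBS Tregs the median was 1.30. Without the 2 libraries rich in other cells, 6 of the list rose under WT IL-2, and Car1 there changed by 1.70 (adjusted p = 0.00878). In Tcons 0 of 16 tested markers changed with MHCII-Block in edgeR, with 0 at an unadjusted p under 0.05 and 0 called by DESeq2 or limma, and with a median of 0.17, and 16 of 16 were lower in Tregs than in Tcons, with a median of -3.74.

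Klf1, the master regulator of the red cell lineage, rose under all 3 molecules, a call lost under H16R in limma on log2(FPKM + 1) and without isotype H16R library 3 or 4 or MHCII-Block H16R library 3, with an adjusted p of up to 0.236. It differed by 3.18 in PBS Tregs, and by 1.56 under WT IL-2, 1.23 under H16R and 2.59 under 3x. It ran from 0.123 to 6.85 CPM in Tregs and from 6.18 to 44.1 CPM in Tcons. The summed level of 16 measured markers was 31.0 to 56.8 CPM in isotype Tregs and 42.9 to 153.3 CPM in MHCII-Block Tregs. Gata1 and Car2, with medians of 17.3 and 15.6 CPM in Tregs, were large parts of this sum, whose median was 48.8 CPM. By group it was 47.3 to 56.8 CPM with isotype and 53.8 to 138.2 CPM with MHCII-Block in PBS mice, and 31.0 to 52.7 CPM against 51.4 to 153.3 CPM under WT IL-2. It was 34.7 to 39.7 CPM against 42.9 to 74.7 CPM under H16R, and 31.7 to 34.9 CPM against 45.5 to 53.7 CPM under 3x. No measured marker was at 0 in all libraries of a group. In Tcons the sum was 103.7 to 1081.7 CPM. The authors lysed red blood cells when preparing splenocytes, and they report that most samples were largely Foxp3+ after purification. The part of these markers in the Car1 result was not tested.

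The 156 other genes at least 4 log2 units lower in Tregs than in Tcons, a limit set after the data were seen, are described with no filter on their Treg level and no test. With MHCII-Block, 128 of 156 had a higher mean CPM in PBS Tregs, 143 under WT IL-2, 144 under H16R and 141 under 3x. The share of all genes with a higher mean was not counted, so these counts have no background to stand beside. Their summed level was 35.0 to 75.0 CPM with isotype and 90.4 to 270.0 CPM with MHCII-Block in PBS Tregs, and 20.9 to 50.7 against 61.5 to 341.0 CPM under WT IL-2. It was 22.2 to 39.0 against 44.2 to 104.0 CPM under H16R, and 15.7 to 20.6 against 60.2 to 85 CPM under 3x. The groups did not overlap under any drug, as those of Car1 did not, and how often groups of other genes overlap was not counted. The part of cells of the unbound fraction in the Car1 result was not tested.

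Markers of other cells also changed with MHCII-Block in Tregs. Several were near 0 in most Treg libraries and could pass the filter only through the groups where they were high, so the counts describe the tested markers alone. All genes tested gave calls in 33.6% under WT IL-2, 30.7% under H16R and 54.1% under 3x. Under WT IL-2 the B cell list rose in 8 of 8 tested genes, monocyte and macrophage in 10 of 10, dendritic cell in 7 of 7, neutrophil in 5 of 5 and natural killer cell in 5 of 5. Without the 2 libraries rich in other cells, MHCII-Block WT library 1 among them, 3 of 8, 4 of 10, 6 of 6, 4 of 5 and 4 of 4 rose. Under H16R the same lists rose in 2 of 8, 3 of 10, 5 of 7, 4 of 5 and 4 of 5 genes, and without those libraries in 7 of 8, 9 of 10, 4 of 6, 4 of 5 and 4 of 4. With all libraries, 25.0% of the B cell and 30.0% of the monocyte and macrophage list were called under H16R, no more than the 30.7% of all genes. Under 3x the 5 lists rose in 4 of 8, 4 of 10, 6 of 7, 1 of 5 and 3 of 5 genes, and without those libraries in 8 of 8, 10 of 10, 5 of 6, 3 of 5 and 3 of 4. In PBS Tregs the medians of these lists were -1.56, -2.17, -0.48, -2.88 and -0.71, and without the same libraries -0.58, -0.06, -0.27, -1.23 and -0.38. With all libraries, the B cell (50.0%), monocyte and macrophage (40.0%) and neutrophil (20.0%) lists were called under 3x in smaller shares than the 54.1% of all genes. Plasma cell markers rose in 5 of 6 under WT IL-2, where 1 fell, and in 6 of 6 under each mutein, with a median of -0.12 in PBS Tregs. Basophil and mast cell markers rose in 3, 4 and 5 of 5, with a median of 0.50 in PBS Tregs, CD8 T cell markers in 1, 1 and 2 of 2, and the 1 platelet marker tested, Itga2b, rose by 0.36 under WT IL-2, a call lost without the 2 libraries. Of the 8 T cell and Treg markers, 8 fell under WT IL-2 (5 without the 2 libraries), 1 under H16R and 2 under 3x, where Il2ra rose. The shares called under H16R (12.5%) and 3x (37.5%) were below those of all genes. The part of these markers in the results for Car1 and Nos1 was not tested.

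By the same measure, the genes most like Nos1 were Trpv2 (r = 0.972 over 32 libraries), a calcium-permeable channel, Paqr4 (0.972), Slc43a2 (0.968), an amino acid transporter, Snx2 (0.967), a sorting nexin, and S1pr4 (0.967), a sphingosine phosphate receptor of lymphocytes. Of these, Trpv2, Slc43a2, Snx2 and S1pr4 never fell below 60.3 CPM in Tregs, while Paqr4 ran from 2.53 to 30.8 CPM, near the range of Nos1. Their blockade contrasts, again a description, were of the same signs as those of Nos1 but smaller, from -0.43 to -0.11 under WT IL-2, 0.06 to 0.63 under H16R and 0.23 to 0.80 under 3x. Car1 and Nos1 themselves were not alike, with r = -0.07 over the same 32 libraries.

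Of the other carbonic anhydrases, 8 of 15 were tested in Tregs. Car2, the main cytosolic form of many cells and also a listed red cell marker, rose with MHCII-Block under WT IL-2 by 1.00 (SE 0.27, adjusted p = 0.00703), under H16R by 0.73 (SE 0.28, adjusted p = 0.0599) and under 3x by 1.26 (SE 0.29, adjusted p = 0.000763). In PBS Tregs it was higher by 0.89. Car13, a further cytosolic form, rose by 1.45 under WT IL-2 (SE 0.46, adjusted p = 0.0189) and by 1.06 under 3x (SE 0.49, adjusted p = 0.0742), at no more than 1.15 CPM. With a median of 0.266 CPM in Tregs, Car13 could pass the filter only through its higher libraries, which limits its calls and the counts below. Its call under WT IL-2 was lost without MHCII-Block WT library 1 (1.00, adjusted p = 0.114), and that under 3x in limma on log2(FPKM + 1) and without isotype 3x library 1 or 3 or MHCII-Block 3x library 1, 3 or 4, with an adjusted p of up to 0.211. The Car2 call under H16R was lost without isotype H16R library 3 or 4 or MHCII-Block H16R library 3 (0.52, adjusted p = 0.239). Car3 was at most 0.15 CPM in Tregs and did not pass the filter. Membrane-bound Car12 changed under 3x by -0.83 (SE 0.11, adjusted p = 7.98e-07), and mitochondrial Car5b changed under WT IL-2 by -0.68 (SE 0.1, adjusted p = 1.7e-05). In all, 2 of 8 rose and 1 fell under WT IL-2, 1 rose and 0 fell under H16R, and 3 rose and 3 fell under 3x, with list medians of 0.34, -0.07 and -0.23. The shares called, 37.5%, 12.5% and 75.0%, stand beside 33.6%, 30.7% and 54.1% of all genes.

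Like Car1, Car2 and Car13 were lower in Tregs than in Tcons. Treg minus Tcon was -3.17 for Car2 (SE 0.16, adjusted p = 2.52e-10) and -2.81 for Car13 (SE 0.28, adjusted p = 3.31e-07), while Car5b was higher in Tregs by 1.58 (SE 0.24, adjusted p = 2.91e-05). Car5b, Car11, Car12 and Car15 were higher in Tregs, and Car2, Car9 and Car13 lower. In Tcons 0 of 8 tested carbonic anhydrases changed with MHCII-Block in edgeR, with 0 at an unadjusted p under 0.05 and 0 called by DESeq2 or limma.

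Transporters of bicarbonate and protons changed in both directions. Of 13 tested in Tregs, 0 rose and 5 fell under WT IL-2, 2 rose and 1 fell under H16R, and 4 rose and 2 fell under 3x, with medians of -0.12, -0.03 and 0.03. The shares called were 38.5%, 23.1% and 46.2%, near the 33.6%, 30.7% and 54.1% of all genes. Slc16a3, an exporter of lactate and protons, had the signs of Nos1: it changed by -0.81 under WT IL-2 (SE 0.14, adjusted p = 0.000107), by 0.73 under H16R (SE 0.14, adjusted p = 0.000602) and by 1.13 under 3x (SE 0.14, adjusted p = 3.13e-07). Slc9a2, a sodium and proton exchanger, rose by 0.79 under H16R (SE 0.22, adjusted p = 0.013) and 1.61 under 3x (SE 0.23, adjusted p = 2.66e-06). Slc4a1, the chloride and bicarbonate exchanger of red cells and also on the marker list, rose by 3.62 under 3x (SE 1.33, adjusted p = 0.0271). Slc4a5 changed by -0.82 and Slc9a5 by -0.41 under WT IL-2, and Slc4a8, a sodium-driven exchanger, by -0.20 under H16R. In Tcons, Slc4a8, Slc4a7 and the proton channel Hvcn1 changed by -0.42, -0.39 and -0.29, and 0 of 14 rose. In PBS Tregs, Slc16a1, Slc9a5 and Slc26a11 differed by -0.48, -0.45 and 0.32. Against Tcons, Tregs had less Slc4a1 and Slc4a4 (-4.04 and -4.01) and more Slc16a3 (1.80).

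The other nitric oxide synthases were near 0 in these cells. Nos2 was at most 0.234 CPM in Tregs and at 0 in 15 of 32 libraries, and Nos3 ran from 0.11 to 0.55 CPM, and neither passed the filter. Nos1 was thus the only synthase gene with a test.

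Of 10 tested regulators of the synthases in Tregs, 1 rose and 3 fell under WT IL-2, 3 rose and 3 fell under H16R, and 4 rose and 4 fell under 3x, or 40.0%, 60.0% and 80.0% called against 33.6%, 30.7% and 54.1% of all genes. Nostrin, which moves Nos3 to endosomes, rose by 1.23 under WT IL-2 (SE 0.34, adjusted p = 0.0081) and 1.66 under H16R (SE 0.39, adjusted p = 0.00396). Calm3, a calmodulin gene, rose by 0.44 under 3x (SE 0.07, adjusted p = 1.19e-05). Dlg4, the scaffold that binds Nos1 at synapses, changed by -0.26 under H16R (SE 0.06, adjusted p = 0.00429) and -0.47 under 3x (SE 0.06, adjusted p = 8.72e-07). The chaperone genes Hsp90aa1 and Hsp90ab1 fell under all 3 molecules, with log2 fold changes of -0.20, -0.26 and -0.17 for Hsp90aa1. Ddah2, which clears the methylated arginines that inhibit the synthases, rose by 0.50 under 3x (SE 0.22, adjusted p = 0.0617). In PBS Tregs, Ddah2 differed by 0.72, Hsp90aa1 by -0.38 and Hsp90ab1 by -0.22.

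Genes of arginine supply and use gave 2 rises and 3 falls under WT IL-2, 1 and 1 under H16R and 2 and 1 under 3x, of 7 tested. Called were 71.4%, 28.6% and 42.9%, against 33.6%, 30.7% and 54.1% of all genes. Gatm, which uses arginine for creatine synthesis, rose by 1.81 under WT IL-2 (SE 0.38, adjusted p = 0.000809), 1.29 under H16R (SE 0.4, adjusted p = 0.0238) and 2.14 under 3x (SE 0.41, adjusted p = 0.000138). It was another gene much lower in Tregs than in Tcons (-4.08, SE 0.22, adjusted p = 5.79e-10). Slc7a7, an arginine transporter, rose by 0.72 under WT IL-2, where Ass1, which acts in arginine synthesis from citrulline, changed by -0.60. Azin1, an inhibitor of antizyme, rose by 0.34 under 3x. Odc1, the entry enzyme of polyamine synthesis, changed by -0.31 under H16R (SE 0.08, adjusted p = 0.0073) and -0.79 under 3x (SE 0.08, adjusted p = 1.07e-08), and also fell under WT IL-2. In PBS Tregs, Gatm, Odc1 and Azin1 differed by 1.57, -0.58 and -0.22.

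The tetrahydrobiopterin genes had small fold changes. Gch1, the rate-limiting enzyme of its synthesis, changed by -0.37 under WT IL-2 (SE 0.07, adjusted p = 0.000101), where Pts changed by -0.15. Qdpr changed by -0.15 under 3x, and under H16R the 5 tested genes lay between -0.05 and 0.06. In PBS Tregs, Gch1 differed by -0.34.

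Of 7 tested cyclic GMP genes, 1 rose and 2 fell under WT IL-2, 0 rose and 2 fell under H16R, and 0 rose and 3 fell under 3x, or 42.9%, 28.6% and 42.9% called, near the 33.6%, 30.7% and 54.1% of all genes. Gucy1b1, a subunit of soluble guanylate cyclase, changed by -0.48 under H16R (SE 0.15, adjusted p = 0.021) and -0.68 under 3x (SE 0.15, adjusted p = 0.000552), the molecules under which Nos1 rose. Its partner subunit Gucy1a1 changed by -0.41 under 3x, and Pde1b, a phosphodiesterase, by -0.31 under H16R and -0.43 under 3x. Under WT IL-2, Pde5a rose by 0.53, and Pde2a and Vasp changed by -0.42 and -0.26. In PBS Tregs the 7 lay between -0.27 and 0.07.

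**Figure D5:**
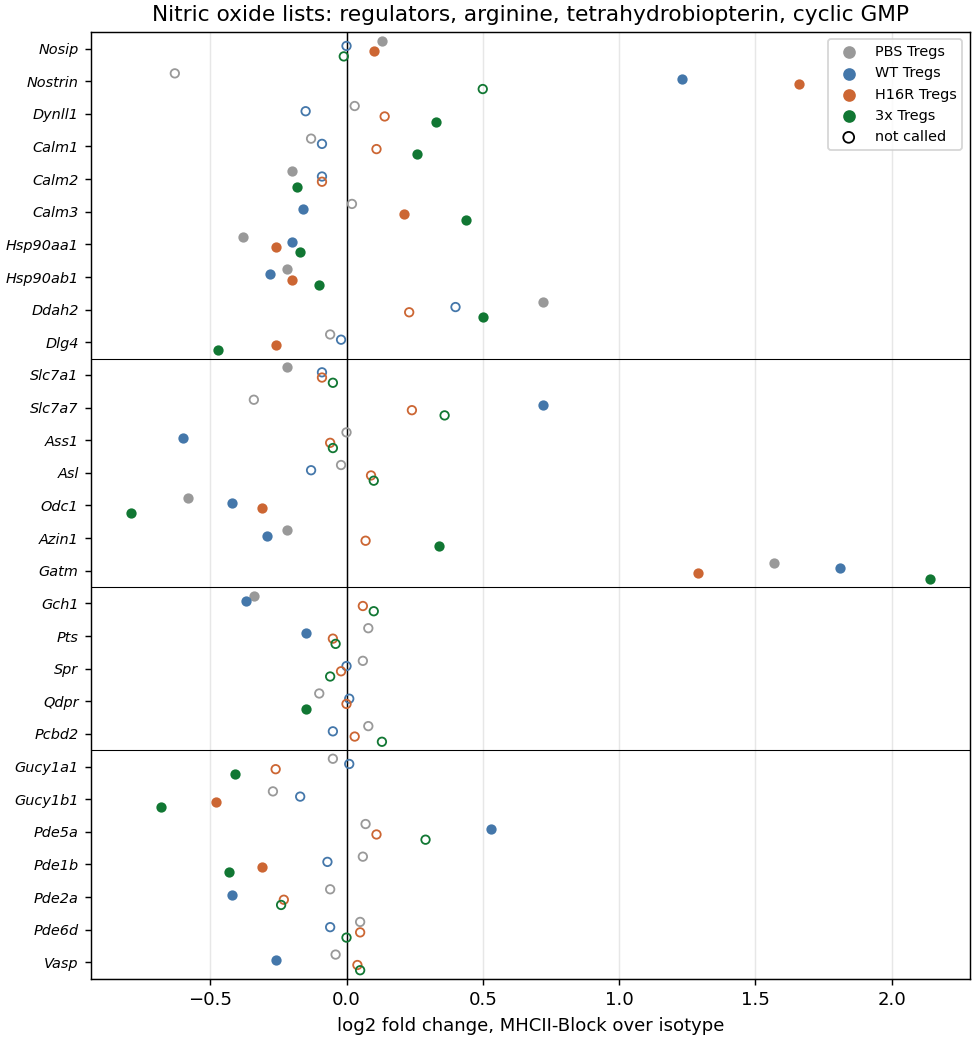
Log2 fold change of MHCII-Block over isotype in Tregs for the tested genes of 4 lists, from top to bottom regulators of nitric oxide synthases, arginine supply and use, tetrahydrobiopterin synthesis and cyclic GMP signaling; colour is the drug, and filled points passed an adjusted p of 0.1. Gatm reaches 2.14 under 3x and Nostrin 1.66 under H16R, while the tetrahydrobiopterin genes lie between -0.37 and 0.13.

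In Tcons the Nos1 adaptor was among the genes that changed. Nos1ap, an adaptor of Nos1, rose with MHCII-Block by 1.11 (SE 0.23, adjusted p = 0.0114), Ddah2 by 0.53 (SE 0.11, adjusted p = 0.0112) and Calm3 by 0.17 (SE 0.05, adjusted p = 0.0432). Nos1ap ran from 0.16 to 1.06 CPM in Tcons with a median of 0.425 CPM. It could pass the filter of 0.5 CPM only through its higher libraries, which limits its call. Gch1 changed by -0.24, Odc1 by -0.20, and Gucy1a1, Pde2a and Pde1b by -0.45, -0.41 and -0.20, and Qdpr rose by 0.13. Between the cell types, Cav1, Nos1ap and Nostrin were lower in Tregs (-4.32, -2.40 and -1.27), as were Prkg1 (-5.10), Pde10a (-3.85) and Qdpr (-0.29). Gucy1a1 (1.86), Odc1 (1.05), Ass1 (1.02), Gch1 (0.26) and Pts (0.26) were higher in Tregs, on the side of Nos1.

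The genes beside the members on the chromosome differed in their responses. Within 250 kb of Car1, Lrrcc1 changed by -0.30 under H16R (adjusted p = 0.00391) and -0.39 under 3x (adjusted p = 8.02e-05), and E2f5 by -0.19 (adjusted p = 0.0907) and -0.23 (adjusted p = 0.0207). In the same window and as given above, Car2 rose under WT IL-2, H16R and 3x, and the low Car13 under WT IL-2 and 3x. 1810022K09Rik and Car3 were not tested in Tregs. Within 250 kb of Nos1, Ksr2, 6.0 kb from it, changed by -0.44 under H16R (adjusted p = 0.0786) and -0.53 under 3x (adjusted p = 0.0171), with the opposite sign to Nos1. Ksr2 was higher in Tregs than in Tcons by 1.62 (adjusted p = 2.99e-08), as Nos1 was. Fbxo21 did not pass the test in any of the 4 Treg contrasts, Tesc changed by -0.22 under 3x (adjusted p = 0.0134), and Fbxw8 by -0.23 under WT IL-2 (adjusted p = 0.00073) and 0.16 under 3x (adjusted p = 0.00705), with the signs of Nos1 but smaller values. Rnft2 rose by 1.29 under WT IL-2 (adjusted p = 0.0187) and 1.21 under H16R (adjusted p = 0.0671) at a mean of 0.249 CPM. At no more than 0.656 CPM in Tregs, Rnft2 could pass the filter only through its higher libraries, which limits these calls. Hrk had no values to test.

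Among the 9507 genes whose mean over the Treg libraries exceeded 5 CPM, Car1 ranked at the top by log2 fold change in the PBS contrast that chose it, at 3.03. Between it and Nos1, the number 5 gene at 1.28, lay Ifit3b at 2.16, Ifit1 at 1.83 and Ifit3 at 1.82, interferon-induced genes. Just below Nos1 came Lgals7 at 1.25 and Isg15 and Cd163l1 at 1.14 each. Car1 passed the cut through its MHCII-Block libraries, with a mean of 13.3 CPM in MHCII-Block Tregs against 2.65 CPM in isotype Tregs. Of 64 tested genes at least 4 log2 units lower in Tregs than in Tcons, 7 were at or above Car1 in this contrast. Being at the top thus depends on the cut. These ranks describe the choice and support nothing else.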

How the data were processed

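Tregs (32 libraries) and Tcons of 16 of the same mice were profiled by RNA-seq, 48 libraries in all, with groups taken from the sample labels. The authors aligned reads with OSA to mouse genome B38 (GRCm38) and estimated gene levels with the Omicsoft version of RSEM. The deposited expected counts were not normalized by the authors, and 72.6% of the nonzero values are whole. The deposited FPKM values are the authors' estimates divided by transcript length and mapped reads. Tables of the authors' own comparisons (DESeq2 1.30.1 fold changes, statistics and p-values) were not used.

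Expected counts were rounded and tested in R 4.3.3 with edgeR 4.0.16 (TMM scaling, quasi-likelihood test, Benjamini-Hochberg adjustment over all tested genes, threshold 0.1). Protein-coding genes with CPM above 0.5 in at least 4 fitted libraries and no empty cell were kept. A gene with a median below that limit could pass only through its higher libraries, so its rises are partly set by the filter. This holds for Car13, Nostrin, Rnft2 and Slc4a1 in Tregs and for Nos1ap in Tcons. Tregs were fitted in 1 model of 8 groups, Tcons with antibody and drug as additive terms, and Treg against Tcon with the mouse as a block, since both libraries came from 1 animal. Deviations of the 16 such pairs correlated at 0.08 to 0.58. Intervals are the log2 fold change with normal 95% limits. CPM is the expected count scaled to the library total, so depth (18.28 to 51.95 M) sets the precision of low values. Alternatives were DESeq2 1.42.0, limma 3.58.1 on log2(FPKM + 1) and log2(FPKM + 0.1), other scalings and filters, fewer libraries and replicate blocks. The fits were tested on simulated data.

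The members and all lists were chosen with earlier results of these data known. Named were the members, up to 3 called genes of the largest change per list and contrast, close relatives, the 5 most correlated genes, neighbours within 250 kb, marker lists, and genes of adjacent rank. The arginine and tetrahydrobiopterin lists are given without 1 gene each, which is not reported here. Positions and sequences come from GENCODE vM21, which held 96.6% of the gene names. It may differ from the annotation the authors used.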

Additional observations from a re-analysis of the deposited data

Results flagged for a closer look

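Car1 in isotype PBS Tregs had 1 library, number 4, far above the other 3, at 7.33 CPM against 1.55 to 2.37 CPM, with a gap of 0.858 of the group's range. Car1 in MHCII-Block H16R Tregs had library 3 at 11.1 CPM against 5.14 to 6.09 CPM, with a gap of 0.842 of the range. Chance gives gaps this wide in about 1 of 20 groups of 4. For Nos1, the effect of MHCII-Block differed between molecules by a test of the difference itself. H16R minus WT was 1.76 and 3x minus WT was 2.50 on the log2 scale, with blocked libraries above isotype in 4 of 4 under each mutein and below in 4 of 4 under WT IL-2.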

How the results depend on the processing

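Across the alternatives run for the comparisons of Car1 and Nos1, 1425 of 1474 values kept direction and side of the threshold. Many of these fits left out 1 library outside the contrast, which could hardly move its value, so this share does not measure robustness. For Car1, the H16R blockade effect lost its call in limma on log2(FPKM + 0.1) (1.05, adjusted p = 0.101) and with every biotype (1.08, 0.102), and leaving out 1 library gave 0.75 to 1.19. With isotype, 3x against WT lost it in limma on log2(FPKM + 1) (-0.67) and with no low-count filter (-1.17; leave-one-out -1.55 to -0.92), and 3x against H16R in limma on log2(FPKM + 1) (-0.93; leave-one-out -1.89 to -1.27). With MHCII-Block, 3x against WT changed sign about 0, at 0.04 with no filter, 0.05 with every biotype, 0.01 with only the groups compared and 0.11 without the 2 libraries rich in other cells, an alternative chosen after seeing the data (leave-one-out -0.21 to 0.12). The difference in blockade effect between 3x and H16R gained a call in the 24 libraries of IL-2-treated mice (1.92) and with only the groups compared (1.93; leave-one-out 1.67 to 2.30), and that between 3x and WT in 2 leave-one-out fits (0.89 to 1.53). H16R against PBS in Tcons gained one in 1 such fit (0.41 to 0.72).

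For Nos1, limma on log2(FPKM + 1) gave a call to the difference between 3x and H16R (0.48; leave-one-out 0.56 to 0.85). In Tcons the blockade call was lost at 0.06 and, on log2(FPKM + 0.1), at 0.30, and in PBS Tregs these scales gave 0.18 and 0.75. They differ in pseudocount, length divisor and test, and the cause was not tested. Leave-one-out ranges were -0.02 to 0.24 for 3x against WT and -0.28 to 0.01 for 3x against H16R with isotype, 0.47 to 0.68 for 3x against H16R with MHCII-Block, and 0.35 to 0.56 for H16R against PBS in Tcons. A lone library left in an arm is assumed to vary like the other groups.

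A replicate block on the label numbers, which did not pair isotype with MHCII-Block Tregs (15 pairs, correlations -0.27 to 0.22), gave 1.69, 1.06 and 2.99 for Car1 under WT IL-2, H16R and 3x and -1.02, 0.71 and 1.44 for Nos1, and changed no call of either gene. With no replicate block, Treg minus Tcon was -5.10 for Car1 and 3.21 for Nos1. The count of genes called in PBS Tregs went from 1751 to 780 with only the groups compared, and that for the difference in blockade effect between 3x and H16R from 285 to 490 in DESeq2, 611 with only the groups compared, 471 without the 2 libraries rich in other cells and 177 with no filter (98 to 692 leaving out 1 library). Of 7732 values of other genes and lists, 7507 kept direction and call, 110 lost a call and 115 moved. Fits without a library outside the contrast are among these as well. Nos1 in PBS Tregs and in Tcons rests on 11 to 100.1 expected counts, which limits those values.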
